A study of Mus musculus with 2 samples.

Results

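Genes of the neutrophil surface and of late neutrophil maturation were followed in granulocyte-monocyte progenitors (GMPs) of the bone marrow, namely Ly6g, Ly6c1, Ly6c2, Cd177, Cd101, Ceacam1, Retnlg, Padi4 and Lipg. The 9 genes were taken by symbol, and all were found among the 24421 gene symbols measured. RNA-seq was performed on GMPs of female mice, with 1 library from non-tumor-bearing animals (NTB-GMP) and 1 from animals in which 4T1 cells, a line of mouse mammary carcinoma, had formed orthotopic tumors (4T1-GMP). Both groups had the same F1 semi-syngeneic (H-2b/d) background, and in both the cells were purified from bone marrow by flow cytometry and total RNA was sequenced. The study's general methods describe adult mice of inbred strains; an age for the F1 mice of these libraries, the day of tumor growth, the number of mice behind each library and the gate used for these libraries are not given in the sources used here. There were no replicates, so no difference below carries a replicate error or a p-value. Every interval covers counting error only, and treats reads as independent. PCR reads without molecular identifiers are not independent molecules, so the intervals can be too narrow even for counting error.

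Neutrophils mature in the bone marrow through promyelocyte, myelocyte, metamyelocyte and band stages. The proteins of the primary granules are made in the earliest of these, those of the secondary and gelatinase granules follow, and many surface proteins and secreted factors come last. Ly6g, Ly6c1 and Ly6c2 encode small proteins that a glycosylphosphatidylinositol (GPI) lipid ties to the cell surface. Ly6G is the usual marker of mouse neutrophils, whereas Ly6C is high on inflammatory monocytes and lower on neutrophils, and these antigens divide myeloid-derived suppressor cells into polymorphonuclear and monocytic forms. Cd177 is another GPI-anchored protein of neutrophils, Cd101 and Ceacam1 are transmembrane proteins of the immunoglobulin superfamily, Retnlg encodes a secreted resistin-like protein, Padi4 a peptidylarginine deiminase that converts arginine to citrulline in histones, and Lipg the secreted endothelial lipase, which acts on phospholipids of high-density lipoprotein. In a sort that the study describes for another experiment, marrow cells stained by an antibody to Gr-1, which binds Ly6G and Ly6C, were removed before GMPs were gated. Whether the cells sequenced here went through the same step is not stated.

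Values were deposited as RPKM, which are read numbers scaled to gene length and library size, so levels of different genes may be set side by side. A log2 ratio below is log2 of (4T1-GMP RPKM + 0.1) over (NTB-GMP RPKM + 0.1), a scale that understates the change of low genes, and a gene is called higher or lower when this ratio passes 2-fold. Of the 9 genes, 5 were higher in 4T1-GMP (Ly6g, Cd177, Cd101, Retnlg and Lipg), 1 was lower (Ly6c2) and 3 lay within 2-fold (Ly6c1, Ceacam1 and Padi4). Among all 10378 genes with a mean of at least 1 RPKM, 337 (3.25%) were higher and 511 (4.92%) were lower past the same fold. The split depended on library size, since the precursor of ribosomal RNA, Rn45s, took 17.0% of the NTB-GMP reads and 6.98% of those of 4T1-GMP. Without Rn45s the log2 ratio of the RPKM shifts by -0.16 before the pseudocount is added, and by other amounts for low genes once it is. On that scaling 2.525% of all genes were higher and 7.158% lower, while the counts for the 9 genes stayed at 5 and 1. The median log2 ratio of the 9 genes was 3.06, also with Cd101 set to a floor of 3 reads in NTB-GMP, beside 0.05 for all genes tested (quartiles -0.26 and 0.32). Ly6g, Cd101 and Lipg had a mean of 1 RPKM only through 4T1-GMP and had to be higher there to be counted, so these counts are given as a description; the other 6 genes passed 1 RPKM in both libraries.

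**Figure D1:**
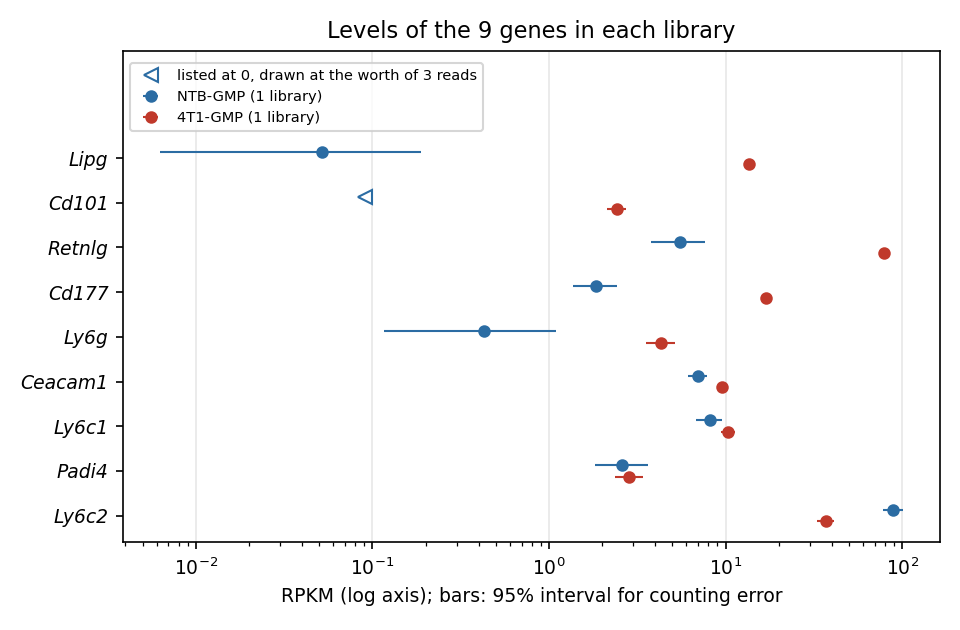
RPKM of each of the 9 genes (log axis) in the NTB-GMP library (blue) and the 4T1-GMP library (red), 1 library each; bars are 95% exact Poisson intervals on the reads, and the open triangle marks Cd101, listed at 0 in NTB-GMP, at the worth of 3 reads. The bars of the 2 libraries lie apart for Ly6g, Cd177, Retnlg, Lipg and, narrowly, Ceacam1, where 4T1-GMP is to the right. They also lie apart for Ly6c2, where NTB-GMP is to the right at 88.7 RPKM against 36.8 RPKM. Cd101 has a bar in 4T1-GMP only, to the right of its triangle.

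The RPKM were deposited with enough digits to recover whole reads, which set the precision of each value. The library sizes were 10180365 reads in NTB-GMP and 30016263 in 4T1-GMP, so the tumor library was 2.95 times as deep and the NTB-GMP values carry the wider intervals. Markers of GMPs were present in both libraries: Mpo, the myeloperoxidase of primary granules, had 5163 RPKM in NTB-GMP and 5625 in 4T1-GMP, and Kit, the stem cell factor receptor, had 78.5 and 49.1. Of 10 GMP markers, 1 was higher (Ms4a3, 479 and 1220 RPKM), 2 were lower (Flt3, 12.6 and 2.34 RPKM; Cd34, 154 and 59.4 RPKM) and 7 lay within 2-fold. Without Rn45s 4 were lower, and with quantile normalization 3. The other markers within 2-fold were Elane (1853 and 2935 RPKM), Cebpa (45.6 and 35.5), Fcgr3 (53.1 and 28.6), Fcgr2b (47.3 and 64.6) and Cd27 (38.1 and 21.2). Among the genes a GMP gate leaves out, Ly6a (Sca-1) had 0 and 0.266 RPKM, Slamf1 (CD150) 0.0731 and 0.0868, and Cd3e 0 and 0.0232, whereas Itga2b (CD41) had 12.8 and 4.43 RPKM and Csf1r (CD115) 12.1 and 7.89. In bulk RNA, fewer cells of a type and less RNA per cell cannot be told apart.

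The sequences before the start sites are shown for Ly6g, Ly6c1 and Ly6c2, neighbouring paralogs that moved in different directions, and for Cd177, Cd101 and Retnlg, which were higher in 4T1-GMP. Each is the 250 bases upstream of the RefSeq start on GRCm38.p6, 5′ to 3′ on the strand of the gene: chr15:75155011-75155260 (+) for Ly6g, chr15:75048838-75049087 (-) for Ly6c1, chr15:75111972-75112221 (-) for Ly6c2, chr7:24760312-24760561 (-) for Cd177, chr3:101029554-101029803 (-) for Cd101 and chr16:48872358-48872607 (+) for Retnlg. Capitals mark matches, on either strand, to TTNNGNAA (the C/EBP motif) and GAGGAA (the PU.1 core); TTCNNNGAA (the STAT motif) had no match in them.
Ly6g: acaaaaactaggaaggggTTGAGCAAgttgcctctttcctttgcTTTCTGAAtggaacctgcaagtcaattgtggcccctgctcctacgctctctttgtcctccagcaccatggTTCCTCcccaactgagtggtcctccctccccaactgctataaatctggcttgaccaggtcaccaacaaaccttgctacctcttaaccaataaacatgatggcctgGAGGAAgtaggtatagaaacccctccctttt
Ly6c1: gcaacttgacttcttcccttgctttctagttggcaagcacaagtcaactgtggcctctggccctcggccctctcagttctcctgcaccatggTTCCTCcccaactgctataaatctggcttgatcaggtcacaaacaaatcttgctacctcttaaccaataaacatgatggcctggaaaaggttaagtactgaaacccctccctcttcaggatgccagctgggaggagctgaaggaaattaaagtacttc
Ly6c2: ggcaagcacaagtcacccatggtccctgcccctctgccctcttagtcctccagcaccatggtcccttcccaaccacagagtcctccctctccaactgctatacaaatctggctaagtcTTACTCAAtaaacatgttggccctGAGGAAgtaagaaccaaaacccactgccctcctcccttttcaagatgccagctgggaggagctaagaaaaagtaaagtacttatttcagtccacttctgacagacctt
Cd177: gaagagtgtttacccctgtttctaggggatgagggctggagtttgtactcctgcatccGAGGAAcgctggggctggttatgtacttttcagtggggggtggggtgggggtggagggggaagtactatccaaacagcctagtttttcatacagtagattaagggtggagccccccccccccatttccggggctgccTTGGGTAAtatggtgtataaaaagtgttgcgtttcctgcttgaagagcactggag
Cd101: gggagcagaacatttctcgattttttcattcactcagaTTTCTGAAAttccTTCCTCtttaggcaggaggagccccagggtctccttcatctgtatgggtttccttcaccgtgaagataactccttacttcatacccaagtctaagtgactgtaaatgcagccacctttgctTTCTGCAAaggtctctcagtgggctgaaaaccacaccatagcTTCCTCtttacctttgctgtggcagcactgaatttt
Retnlg: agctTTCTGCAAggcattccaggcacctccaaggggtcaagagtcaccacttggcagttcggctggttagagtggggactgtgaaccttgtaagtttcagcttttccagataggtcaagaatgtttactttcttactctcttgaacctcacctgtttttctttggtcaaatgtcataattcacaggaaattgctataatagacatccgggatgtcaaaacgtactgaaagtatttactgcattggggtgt

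The 8 promoters searched also took in those of Ceacam1 and Padi4, but not that of Lipg. Of these 8, 5 held the C/EBP letters, beside 36.9% of the 27025 mouse promoters of the same length. The PU.1 letters were found in 6 of 8, beside 23.1% of all promoters, and the STAT letters in 0 of 8, beside 7.18%. The Ly6g promoter held C/EBP matches at bases -232 to -225 and -206 to -199 and PU.1 matches at -136 to -131 and -31 to -26. The Ly6c2 promoter held 1 C/EBP match, at -132 to -125, and 1 PU.1 match, at -108 to -103, and the Ly6c1 promoter held only the PU.1 letters, at -158 to -153. In the Cd101 promoter the C/EBP letters matched at -212 to -205 on the opposite strand and at -211 to -204 on the same strand, so this pair overlaps, and again at -78 to -71. The Cd177 promoter had its C/EBP match at -55 to -48 and its PU.1 match at -192 to -187, and Retnlg had 1 C/EBP match at -246 to -239 and no PU.1 match. A match is only a run of letters; binding was not measured. Ly6g and Ly6c1 promoters were 56.7% identical when aligned, Ly6g and Ly6c2 50.4%, and Ly6c1 and Ly6c2 59.9%.

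The GPI-anchored Ly6 antigens did not move together. Ly6g (chr15:75155240-75159126, plus strand, GRCm38, which is mm10) had 0.426 RPKM (95% interval 0.116 to 1.09, 4 reads) in NTB-GMP and 4.30 RPKM (3.56 to 5.15, 119 reads) in 4T1-GMP. It was thus close to absent from the control library and low, but clearly counted, in the tumor library. The ratio of the reads per library size was 10.1-fold (3.84 to 37.6), and the log2 ratio with the pseudocount was 3.06, which 53 (0.511%) of the tested genes exceeded. At the 4T1-GMP level, 40.4 reads would have been expected in the shallower NTB-GMP library, against the 4 counted. In 4T1-GMP, 21.4% of tested genes had a lower level than Ly6g, against 0.434% in NTB-GMP.

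Ly6c2 (chr15:75108158-75111970, minus strand) went the other way. It had 88.7 RPKM (77.8 to 101, 241 reads) in NTB-GMP and 36.8 RPKM (32.7 to 41.3, 295 reads) in 4T1-GMP. The level in NTB-GMP was 2.41-fold that in 4T1-GMP (2.02 to 2.87), with a log2 ratio of -1.27 that 337 of the tested genes undercut. Ly6c2 was nevertheless abundant in both libraries, above 94.3% of tested genes in NTB-GMP and 81.8% in 4T1-GMP. Its reads are lower bounds, because the gene length they imply, 267 bases, is short of the 822 bases of the longest coding transcript, and the counts may be higher by a common factor. The ratio is not touched by such a factor.

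Ly6c1 (chr15:75044018-75048830, minus strand), whose transcript is 95.1% identical to that of Ly6c2, had 8.12 RPKM (6.81 to 9.61, 136 reads) in NTB-GMP and 10.3 RPKM (9.47 to 11.3, 511 reads) in 4T1-GMP. These levels differed by 1.27-fold (1.05 to 1.55), a log2 ratio of 0.35 that 23.3% of tested genes exceeded. The difference was within 2-fold and was close to the shift that Rn45s can give, as the log2 ratio was 0.18 without Rn45s in the library sizes. Of the 50-base windows of the longest Ly6c1 transcript, 31.7% also occurred in Ly6c2, and 32.6% of those of Ly6c2 occurred in Ly6c1, so reads of these genes can be split or lost in counting and the values of both are uncertain. The length implied for Ly6c1, 1645 bases, is above the 844 bases of its longest coding transcript, and a shorter length would raise its level in both libraries by the same factor. Ly6g shared only 0.448% of its windows with any other gene.

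Within a library, ratios between genes do not depend on the library size. Ly6c2 exceeded Ly6c1 by 10.9-fold (8.81 to 13.6) in NTB-GMP and by 3.56-fold (3.07 to 4.11) in 4T1-GMP. Ly6c2 stood 208-fold (80.2 to 769.8) above Ly6g in NTB-GMP and 8.56-fold (6.90 to 10.7) above it in 4T1-GMP. For Ly6c1 over Ly6g the ratios were 19.1 (7.27 to 70.9) and 2.41 (1.968 to 2.964). In each of these pairs the intervals of the 2 libraries did not overlap. The size of each ratio, though not its change between the libraries, rests on the gene lengths behind the RPKM. These are in doubt for Ly6c1 and Ly6c2. Reads split or lost between Ly6c1 and Ly6c2 could alter both the ratios and their changes, and the intervals leave this out.

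Cd177 (chr7:24743983-24760311, minus strand) had 1.85 RPKM (1.37 to 2.43, 51 reads) in NTB-GMP and 16.9 RPKM (16.0 to 17.8, 1373 reads) in 4T1-GMP. The reads per library size differed by 9.13-fold (6.90 to 12.3), with a log2 ratio of 3.123, exceeded by 51 (0.491%) of the tested genes. Cd177 moved from above 6.50% of tested genes to above 59.9%. Its ratio to Ly6g was 4.33 (1.59 to 16.5) in NTB-GMP and 3.92 (3.25 to 4.77) in 4T1-GMP, intervals that overlap, so a difference between Cd177 and Ly6g in how far they moved was not detectable at this depth. Only 5.74% of its windows occurred in other genes, Gm4763 and BC049730, both of which had 0 RPKM in NTB-GMP and under 1 RPKM in 4T1-GMP.

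CD177 protein sits in the membrane beside the integrin CD11b/CD18, holds proteinase 3 on the cell surface and binds CD31 on other cells. The genes of these partners gave 2 higher, 1 lower and 1 within 2-fold. Prtn3, proteinase 3, had 1399 and 3311 RPKM (log2 ratio 1.24), Itgb2, the CD18 chain, 12.5 and 25.9 RPKM (1.05), and Itgam, the CD11b chain, 10.6 and 19.9 RPKM (0.91). Pecam1, which encodes CD31, was lower in 4T1-GMP, with 29.5 and 11.3 RPKM (-1.38). Once Rn45s was removed from the library sizes, 1 of the partners stayed higher past 2-fold. The enzymes that build and attach the GPI anchor, which the Ly6 antigens and Cd177 need, mostly lay within 2-fold (25 of 26 tested), with a median log2 ratio of 0.06. Piga, a subunit of the enzyme of the first step, was the 1 that was higher (10.8 and 32.5 RPKM, log2 ratio 1.58).

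Cd101 (chr3:100993529-101029556, minus strand), a surface glycoprotein that separates mature from immature neutrophils in mouse marrow, was listed at 0 in NTB-GMP and had 2.42 RPKM (2.12 to 2.75, 235 reads) in 4T1-GMP. With NTB-GMP set to a floor of 3 reads, or 0.0910 RPKM, 4T1-GMP was 26.6-fold higher. The 95% interval of the 0 reads reaches further, to 0.112 RPKM. The 95% interval of the ratio of reads starts at 21.4-fold and has no upper bound. At the 4T1-GMP level, 79.7 reads would have been expected in NTB-GMP. The log2 ratio of 4.65 rests on the pseudocount, and the level stayed low, above 12.04% of tested genes in 4T1-GMP. Its relatives of the EWI immunoglobulin family did not move in this way: Igsf8 was the 1 tested, with 10.9 and 8.03 RPKM (log2 ratio -0.44), and Ptgfrn and Igsf3 were at or under 0.0576 RPKM in both libraries.

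Ceacam1 (chr7:25461707-25477603, minus strand), an adhesion receptor with inhibitory motifs in its tail, had 6.94 RPKM (6.13 to 7.83, 264 reads) in NTB-GMP and 9.55 RPKM (8.99 to 10.1, 1071 reads) in 4T1-GMP. The levels were 1.38-fold apart (1.201 to 1.58), more than counting error gives and less than 2-fold, and 15.9% of tested genes had a larger log2 ratio than its 0.45. Cd177 lay under Ceacam1 in NTB-GMP, at 0.266 of its level (0.193 to 0.360), and above it in 4T1-GMP, at 1.76 times its level (1.63 to 1.91). The Ceacam1 values are uncertain, since 48.2% of the windows of its longest transcript also occur in Ceacam2, which had 0.590 and 1.10 RPKM. None of the other 14 genes of the CEACAM family reached a mean of 1 RPKM, and Ceacam10, a secreted member, had no read in NTB-GMP against 21 reads (0.667 RPKM) in 4T1-GMP.

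Retnlg (chr16:48872621-48874496, plus strand) was the most abundant of the 9 genes in 4T1-GMP. It had 5.49 RPKM (3.80 to 7.68, 34 reads) in NTB-GMP and 78.4 RPKM (74.4 to 82.6, 1431 reads) in 4T1-GMP. The reads per library size were 14.3-fold higher (10.2 to 20.7), with a log2 ratio of 3.81 that 32 (0.308%) of the tested genes exceeded, and the gene went from above 25.1% to above 92.2% of tested genes. Against Ly6c2 within the same library, Retnlg stood at 0.0620 (0.0419 to 0.0890) of its level in NTB-GMP and at 2.13 times its level (1.88 to 2.42) in 4T1-GMP, so the order of the pair turned over. The other resistin genes were close to silent: Retn had 0 and 0.104 RPKM, and 2 of 3 were listed at 0 in both libraries. No 50-base window of Retnlg occurs in another gene.

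Padi4 (chr4:140745865-140774236, minus strand), the deiminase that neutrophils need to release chromatin as extracellular traps, did not differ beyond counting error. It had 2.60 RPKM (1.81 to 3.62, 35 reads) in NTB-GMP and 2.85 RPKM (2.35 to 3.43, 113 reads) in 4T1-GMP. The ratio was 1.10 (0.744 to 1.65), an interval that holds 1, and the log2 ratio of 0.13 became -0.03 without Rn45s in the library sizes. The interval allows a fall to 0.744 or a rise to 1.65 times the NTB-GMP level, and the reads are again lower bounds. The implied length of 1320 bases, against a transcript of 2316, leaves the level of Padi4 uncertain in both libraries, but not its ratio. Padi2, 160.5 kb away in the same gene cluster, was in contrast lower in 4T1-GMP, with 4.50 RPKM (109 reads) and 0.266 RPKM (19 reads) and a log2 ratio of -3.65, passing the filter only through NTB-GMP. Of the other family members Padi1 and Padi6 were listed at 0 in both libraries, and Padi3 had 0 and 1 read.

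Lipg showed the largest log2 ratio of the 9 genes with a pseudocount of 0.1 or 1 RPKM, though with 0.01 RPKM that of Cd101 was larger (7.924 against 7.776). It is known from endothelium, and it lies at chr18:74939322-74961263 on the minus strand. It had 0.0519 RPKM (0.00628 to 0.187, 2 reads) in NTB-GMP and 13.5 RPKM (12.9 to 14.2, 1540 reads) in 4T1-GMP. The ratio of the reads was 261-fold, with a wide interval of 72.2 to 2158 that the 2 control reads set, and 522 reads would have been expected in NTB-GMP at the 4T1-GMP level. The log2 ratio of 6.49 was exceeded by 5 (0.0482%) of the tested genes. The triglyceride lipases related to Lipg stayed under the filter in both libraries, the highest being lipoprotein lipase, Lpl, with 0.704 and 0.403 RPKM. Of 4 tested endothelial markers 0 were higher past 2-fold and 2 were lower: Pecam1 (-1.38) and Eng (-1.08) were the lower ones, and Tie1 had 9.42 and 12.4 RPKM (log2 ratio 0.39, interval of the reads 0.23 to 0.57). Cdh5, which defines endothelium, had 0 and 0.00836 RPKM, Kdr was listed at 0 in both, and the summed level of the 18 markers was 59.3 RPKM in NTB-GMP and 35.9 in 4T1-GMP, of which Pecam1 was a large share (29.5 and 11.3 RPKM). The part of endothelial RNA in the Lipg value was not tested.

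**Figure D2:**
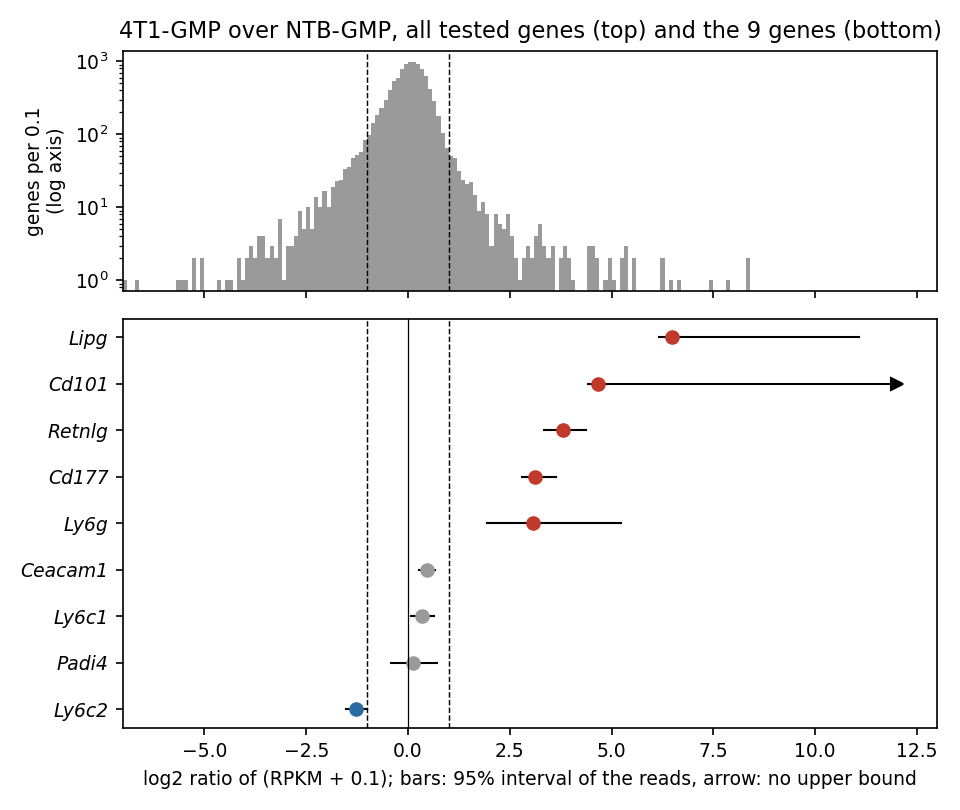
Top, number of tested genes (log axis) per 0.1 of log2 ratio, 4T1-GMP over NTB-GMP; bottom, log2 ratio of (RPKM + 0.1) of each of the 9 genes as a point, with bars for the 95% Clopper-Pearson interval of the ratio of reads, which has no pseudocount, and dashed lines at 2-fold. Ly6g, Cd177, Retnlg, Cd101 and Lipg sit at 3.06 to 6.49, the arrow of Cd101 stands for an interval without an upper bound, and Ly6c2 sits at -1.27.

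The order of the 9 genes changed between the libraries. In NTB-GMP it ran Ly6c2, Ly6c1, Ceacam1, Retnlg, Padi4, Cd177, Ly6g, Lipg and Cd101, from 88.7 RPKM down to 0. Of the neighbours in this order, Ly6c1 and Ceacam1 (ratio 1.17, 0.944 to 1.44), Ceacam1 and Retnlg (1.26, 0.882 to 1.86), Padi4 and Cd177 (1.41, 0.891 to 2.21), and Lipg and Cd101 were not separated beyond counting error. In 4T1-GMP it ran Retnlg, Ly6c2, Cd177, Lipg, Ly6c1, Ceacam1, Ly6g, Padi4 and Cd101, from 78.4 to 2.42 RPKM. There, Ly6c1 and Ceacam1 (1.08, 0.973 to 1.21) and Padi4 and Cd101 (1.18, 0.934 to 1.48) were not separated. The order also rests on the gene lengths behind the RPKM. The places of Ly6c1, Ly6c2 and Padi4, whose implied lengths are far from those of their longest coding transcripts, are therefore uncertain in both libraries. The summed level of the 9 genes was 114 RPKM in NTB-GMP, most of it Ly6c2, and 175 RPKM in 4T1-GMP, and the 5 genes past 2-fold upward went from 7.82 to 116 RPKM. Lipg against Cd177 went from 0.0281 (0.00331 to 0.107) to 0.804 (0.747 to 0.865), while Retnlg against Ly6g, at 12.9 (4.60 to 50.003) and 18.2 (15.1 to 22.2), had overlapping intervals.

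The divergence of the Ly6 antigens was seen among close neighbours on the chromosome. Ly6c2 starts 47.1 kb and Ly6c1 111 kb from the start of Ly6g. Ly6e, 200.2 kb away, was the most abundant Ly6 gene, with 246 RPKM in NTB-GMP and 227 in 4T1-GMP, a log2 ratio of -0.11 (-0.15 to -0.07 from the reads). Within 500 kb of the Ly6g start, the other tested genes were Jrk (-0.37), 9030619P08Rik (-0.07) and Zfp41 (-0.21), all within 2-fold, and Them6, a thioesterase-like gene, which was higher (2.97 and 6.78 RPKM, log2 ratio 1.16) on 15 and 101 reads. Of the wider Ly6 and uPAR family, 32 of the 39 genes listed were found and 3 reached 1 RPKM, Ly6e, Plaur (-0.07) and 9030619P08Rik, with 0 past 2-fold in either direction. The nearest tested genes of Cd177, Cd101, Ceacam1, Retnlg and Lipg had log2 ratios between -0.63 (B3gnt8, beside Ceacam1) and 0.70 (Ethe1, beside Cd177). The large ratios did not extend to them. Padi4 is not among these 5 genes, and its neighbour Padi2 was at -3.65. Some neighbours lay far off, with Plcxd2 at -2913 kb from the Retnlg start and Slc22a15 at 862 kb from that of Cd101. These neighbours were chosen after the values of the 9 genes were seen.

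**Figure D3:**
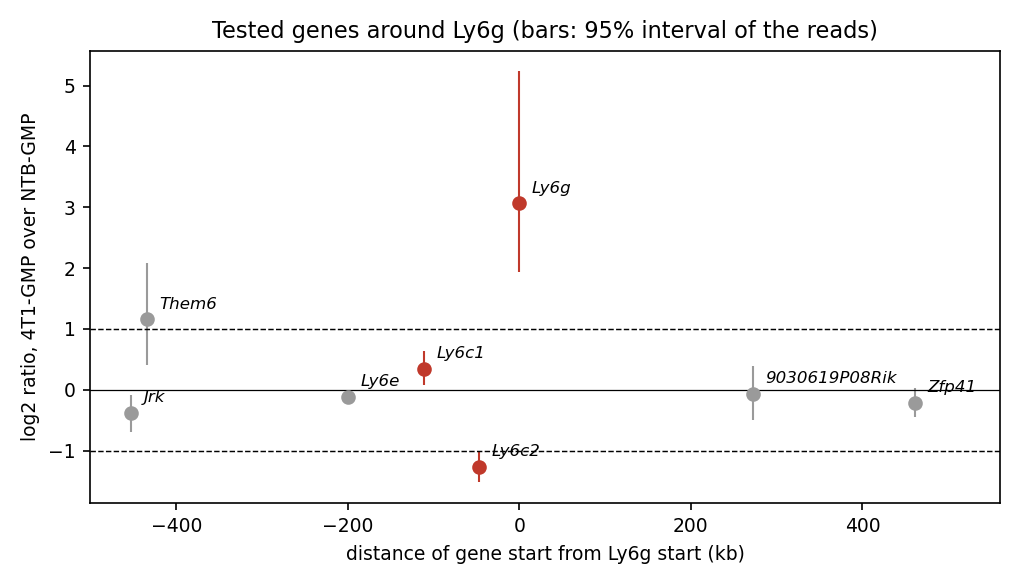
Log2 ratio, 4T1-GMP over NTB-GMP, of the tested genes within 500 kb of the Ly6g start, against the distance of their starts from it in kb, with Ly6g, Ly6c1 and Ly6c2 in red; bars are 95% intervals of the ratio of reads and dashed lines mark 2-fold. Ly6g is at 3.06 and Ly6c2, 47.1 kb away, at -1.27, with Ly6c1 at 0.35 and Ly6e at -0.11.

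Other genes of neutrophil maturation were counted in the same way. Of 29 tested late neutrophil genes outside the granules, 21 were higher, 0 were lower and 8 lay within 2-fold, with a median log2 ratio of 1.76. The largest were Il1b, the cytokine interleukin-1 beta (0.0740 and 12.8 RPKM, 1 and 509 reads, log2 ratio 6.21), Asprv1, a protease (5.34), and Il1r2, the decoy receptor of interleukin-1 (5.30). Cxcr2, the chemokine receptor that draws neutrophils out of the marrow, had 6.59 and 23.1 RPKM (1.79). Of the 8 within 2-fold, Dusp1, a phosphatase of MAP kinases, had a log2 ratio of -0.41, Selplg, the ligand of P-selectin, -0.14, and Ltb4r1, a leukotriene B4 receptor, 0.27. Under the filter, Mmp25, a membrane protease, had 0 and 104 reads, and Alpl, alkaline phosphatase, had 2 and 4 reads, too few to place. Of the 21 higher genes, 7 (Il1b, Asprv1 and Il1r2 among them) passed the filter only through 4T1-GMP and had to be higher to be counted, and 14 passed in both libraries. Dusp1, Selplg, Ltb4r1, Cxcr2, Mmp25 and Alpl were singled out after their values were seen.

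Of 11 secondary and gelatinase granule genes, 9 were higher and 0 lower, with a median log2 ratio of 1.57, led by the metalloproteinases Mmp9 (4.52) and Mmp8 (4.51) and by the siderophore binder Lcn2 (2.68). Mmp8 and Mmp9 passed the filter only through 4T1-GMP, and the other 7 higher genes passed in both libraries. Of 8 primary granule genes, 4 were higher and 0 lower, with a median of 0.93, led by Ms4a3 (1.35), Prtn3 (1.24) and Serpinb1a (1.16); 2 rather than 4 were higher without Rn45s or with quantile normalization. The log2 ratios of Ly6g, Cd177 and Retnlg, at 3.06 to 3.81, thus lay between those of Lcn2 and Mmp8. The 3 lists together held 48 tested genes, of which 34 were higher and 0 lower, or 28 higher without Rn45s in the library sizes. Among all tested genes 3.25% were higher and 4.92% lower. The lists were written with earlier results of these data known, so these counts are a description only. Of the 34, 25 passed the filter in both libraries and 9 only through 4T1-GMP.

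**Figure D4:**
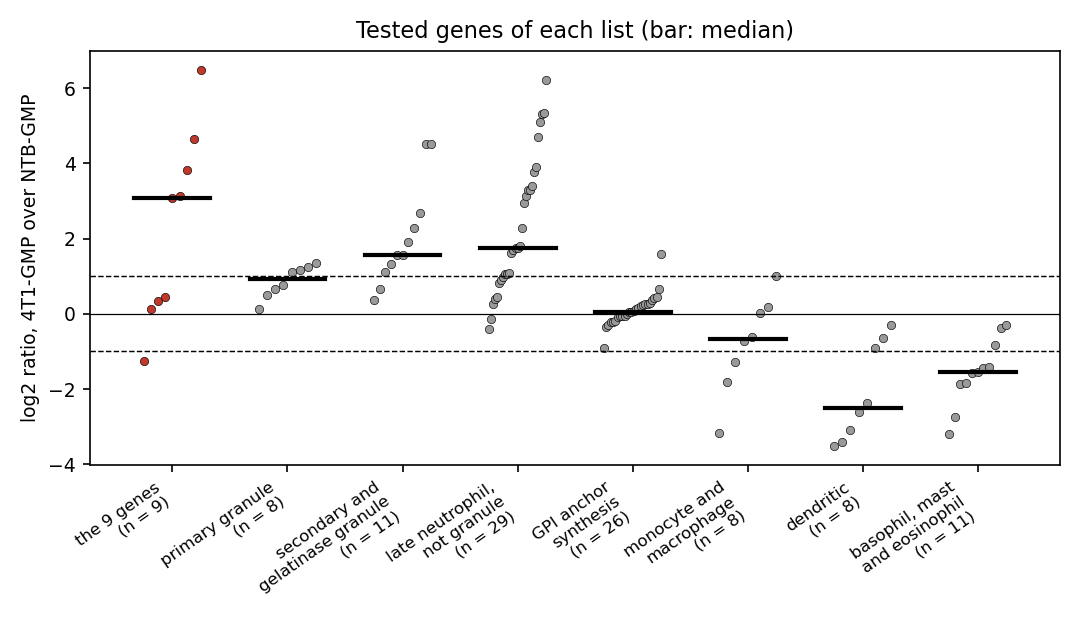
Log2 ratio, 4T1-GMP over NTB-GMP, of each tested gene of the 9 genes (red) and of 7 lists (grey), with a bar at each median and dashed lines at 2-fold. The medians fall from 3.06 for the 9 genes, 1.76 for late neutrophil and 1.57 for secondary and gelatinase granule genes to 0.06 for GPI anchor synthesis and -2.50 for dendritic markers.

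Among 15 regulators of neutrophil maturation, 4 were higher, 3 lower and 8 within 2-fold, with a median log2 ratio of 0.50. Rara, a retinoic acid receptor (1.45), Csf3r, the receptor of G-CSF (1.09), and Mxd1, an antagonist of MYC (1.07), had the largest positive ratios, Rara (0.499 and 1.53 RPKM) passing the filter only through 4T1-GMP. Gfi1b (-3.31), Irf8, a factor of the monocyte and dendritic fates (-2.82), and Runx1 (-1.26) were lower, Gfi1b passing the filter only through NTB-GMP. Cebpe, which drives the secondary granule stage, had 48.5 and 70.4 RPKM (0.54), and Gfi1, its partner in neutrophil commitment, 45.0 and 82.7 RPKM (0.88), both within 2-fold. Without Rn45s or with a pseudocount of 1 RPKM, 1 regulator rather than 4 was higher.

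Markers of other marrow cells were read in the same libraries. Of 8 tested monocyte and macrophage markers, 3 were lower and 0 higher past 2-fold, led by Ly86 (-3.18), Cx3cr1 (-1.80) and Ms4a6c (-1.28), and their summed level over 18 markers was 137.5 RPKM in NTB-GMP and 106.4 in 4T1-GMP. Cd14 had a positive log2 ratio (3.61 and 7.30 RPKM, 0.997, past 2-fold with quantile normalization or a pseudocount of 0.01 RPKM), and F13a1 (0.02) and Vcam1 (0.18) stayed near 0, so the list did not move as one. The part of such cells in the Ly6c2 value was not tested. Of 8 tested dendritic markers 5 were lower (summed level 146 and 39.2 RPKM), led by H2-Aa (-3.52), H2-Ab1 (-3.40) and Cd74 (-3.10). Of 11 tested markers of basophils, mast cells and eosinophils 8 were lower (1904 and 676.5 RPKM), led by Ear2 (-3.19), Ear1 (-2.76) and Ms4a2 (-1.86). Erythroid and megakaryocyte markers gave 3 lower of 4 tested, Klf1 (-2.42), Gp9 (-1.60) and Itga2b (-1.51). Their sum was 58.2 and 78.8 RPKM, most of it Tfrc (36.6 and 73.0 RPKM, log2 ratio 0.99), which lay within 2-fold. Stromal markers gave 1 lower of 1 tested, Pdgfrb (-1.52), with 5.61 and 1.98 RPKM in sum. B cell markers summed to 16.4 and 13.4 RPKM, most of it Cd79b (14.7 and 12.4 RPKM, -0.24), the 1 tested. T and NK cell markers summed to 191.6 and 338.9 RPKM, nearly all of it Nkg7 (190 and 337 RPKM, 0.82), the 1 tested. Most tested genes of the secondary and gelatinase granule and late neutrophil lists were higher, as were Ly6g, Cd177, Cd101, Retnlg and Lipg. Of the 8 primary granule genes, 4 were higher, or 2 without Rn45s or with quantile normalization. The summed levels were 10614 and 16673 RPKM over the primary granule genes and 367 and 949 RPKM over the 11 secondary and gelatinase granule genes. Over the 31 late genes they were 728 and 4401 RPKM. Most of the late sum in both libraries was S100a8 (208 and 1594 RPKM) and S100a9 (189 and 1974 RPKM). The part of more mature cells in these results was not tested.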

How the data were processed

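Bulk RNA-seq of 2 libraries was analysed, 1 per group. The authors deposited RPKM per gene symbol for each library. The submitters' processing notes list CASAVA 1.8.2, cutadapt 1.2.1, TopHat2 2.0.13, Picard 1.97, HTSeq 0.6.1 and edgeR 3.12.1 with mm10; the annotation, strandedness and settings are not given in the sources used here. Whole reads were recovered as the smallest whole numbers that fit the ratio of the RPKM with a whole gene length, and are lower bounds. Library sizes came out of the same step. Ratios used log2(RPKM + 0.1) for genes with a mean of at least 1 RPKM. Intervals (95%) were exact Poisson for levels and Clopper-Pearson for ratios. The recovery was run on simulated reads with the lengths of the longest annotated transcripts, and its accuracy is not given here. Implied lengths far from these, as for Ly6c1 and Padi4, were not covered. With 1 library per group no test across samples was made. All 9 genes are named, with up to 3 of the largest rises and falls past 2-fold of each of 22 lists and the GMP markers in full; other genes named were chosen after their values were seen. Some marker genes are not reported here. The members and lists were chosen with earlier results of these data known. Promoters are from RefSeq (GRCm38.p6) and positions and transcripts from GENCODE (GRCm38). Alternatives were pseudocounts of 1 and 0.01 RPKM, library sizes without Rn45s, quantile normalization, centring on the median, all genes above 0 and a mean of at least 5 RPKM. The ratio of reads without a pseudocount was added after seeing the data. Python 3.11.15, numpy 2.4.6, pandas 2.3.3, scipy 1.17.1 and matplotlib 3.10.9 were used.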

Additional observations from a re-analysis of the deposited data

How the results depend on the processing

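The counts of 5 higher and 1 lower among the 9 genes were the same with pseudocounts of 1 and 0.01 RPKM, without Rn45s, with quantile normalization, after centring and with all genes above 0. A minimum mean of 5 RPKM drops Ly6g, Cd101 and Padi4, which left 3 higher and a median of 1.789; a pseudocount of 1 RPKM gave a median of 1.773. Over all genes, 2.881% were lower with a pseudocount of 1 RPKM, 4.948% were higher and 8.4% lower with all genes above 0, and 2.13% and 2.268% with a mean of at least 5 RPKM. Of 53 ratios of single genes under the alternatives, 4 moved beyond their interval, all with a pseudocount of 1 RPKM, where Ly6g had 1.894, Cd177 2.649, Cd101 1.773 and Lipg 3.79. The log2 ratio of Cd101, with 0 reads in NTB-GMP, was 7.924 with a pseudocount of 0.01 RPKM. The sign changed only for Padi4, without Rn45s. No paired analysis was possible because there was only a single library on either side, so none could be left out. Depth limits Ly6g, Lipg and Cd101 in NTB-GMP, where 4, 2 and 0 reads were counted.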
